A study of Mus musculus with 24 samples.

Results

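The Ddx and Dhx genes encode most of the DEAD-box and DEAH-box RNA helicases of the mouse. Members were all protein-coding genes of the mm10 annotation whose symbol starts with Ddx or Dhx and a digit, which gave 53 of 21938 protein-coding genes, 37 of them Ddx and 16 Dhx. Their protein-protected sites (PPSs) were followed in MEL cells, a murine erythroleukemia line arrested at an early erythroid stage, before DMSO was added (day 0) and at day 2 and day 4 post induction. The untreated day 0 cells served as the reference for both later days, and all samples came from the same line in culture. MEL cells carry the transformation that made them a leukemia line, so they stand for erythroblasts only as a cell line model. In PIP-seq, cross-linked lysates are digested with a nuclease of single-stranded RNA (ssRNase) or of double-stranded RNA (dsRNase), either with proteins in place (footprinting) or after proteins are removed (structure only), and stretches with significantly more footprinting than structure only reads are called PPSs. The 24 libraries held 8 per day, 2 replicates for each nuclease and library kind.

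DEAD-box and DEAH-box proteins use ATP to open RNA duplexes, to displace proteins from RNA or to clamp onto RNA, and their names come from the residues of a conserved ATPase motif. DEAH-box members drive steps of the spliceosome cycle, and many DEAD-box members act in ribosome assembly, mRNA export, translation or mRNA decay. In maturing erythroid cells, ribosome production and transcription decline while globin mRNAs are translated. The measurements below concern proteins bound to the helicase transcripts, not the helicases' own binding sites.

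The unit throughout is coverage, the percentage of a gene's exonic (or intronic) nucleotides that lie in a PPS of the same strand, so that genes are compared per length. PPSs of 20 to 40 nt were left out, because ribosomes protect fragments of that size. For a single replicate, PPSs to which that replicate contributed 1 or more calls were counted, while pooled coverage used all PPSs of the day. Because the authors merged calls before deposit, replicates share PPS boundaries and their spread is understated. Coverage by nuclease was counted in the same way. A PPS with calls of both nucleases counted in full for each, so the nucleases share boundaries too. A gene was called higher or lower when both replicates of the later day lay outside both of the earlier day and the pooled coverage moved by at least 5 percentage points. With 2 replicates per day, the smallest two-sided p of an exact permutation test is 0.333, so no p-values were computed, and calls were read beside the share of all genes called by the same rule. RNA abundance was not measured in these lists, and its part in the changes of coverage was not tested.

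The lists held 138689, 169575 and 152513 PPSs at day 0, day 2 and day 4, with 20927 to 91091 calls in the 12 sets of 1 day, nuclease and replicate, and read depth per library is unknown from them. The dsRNase sets of day 2 were the least balanced, with 41323 and 20927 calls. Plus-strand PPSs made up 56% of the day 0 list, 50.8% of the day 2 list and 50% of the day 4 list, so results are also given by strand. The cell type was checked on fixed markers. All 8 erythroid markers had exonic PPSs on some day, with summed coverage of 154, 239 and 350 percentage points at day 0, day 2 and day 4. Slc4a1 was covered at day 4 only (8.46%). The largest rises were in the globins Hba-a1 (26%, 53.4% and 76.8%) and Hbb-bs (10.4%, 40.5% and 78.9%). Klf1 (20.1%, 36.7% and 22.4%) and Tfrc (33.8%, 22.8% and 53.9%) did not rise steadily. None of 4 lymphoid markers had an exonic PPS. Of 5 myeloid markers, 1 had a PPS (Spi1, the transcription factor PU.1, at 11.3%, 1.71% and 0.223%), and of 3 megakaryocyte markers 2 did (Pf4 and Itga2b). Summed coverage of the megakaryocyte list was 69.1, 44 and 55.7 points.

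Selected sites are shown here with their sequences. Those of the first and second sets were picked for their place in coding exons, which is therefore no result. The sequences below were read from the GRCm38 assembly, the build named mm10, on the strand of the gene, 5′ to 3′. The first set shows PPSs over the codons of the DEAD or DEAH motif, which are in capitals. They are shown because they mark the same place in related transcripts. The sites in Ddx18 (chr1:121561286-121561409, minus strand, 3 calls) and Ddx56 (chr11:6266548-6266617, minus strand, 2 calls) were found at day 0, and the motif codons of neither gene lay in a PPS at day 2 or day 4.
Ddx18: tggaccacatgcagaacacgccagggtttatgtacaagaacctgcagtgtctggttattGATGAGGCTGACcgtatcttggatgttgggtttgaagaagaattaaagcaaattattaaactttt
Ddx56: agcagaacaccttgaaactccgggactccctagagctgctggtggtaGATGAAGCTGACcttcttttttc

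The motif codons of Ddx17 (chr15:79538818-79538954, minus strand, day 4 site shown) and Ddx55 (chr5:124558063-124558161, plus strand, day 0 site shown) were covered at both day 0 and day 4.
Ddx17: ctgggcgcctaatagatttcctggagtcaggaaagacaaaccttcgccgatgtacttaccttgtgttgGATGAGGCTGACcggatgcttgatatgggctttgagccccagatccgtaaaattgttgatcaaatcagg
Ddx55: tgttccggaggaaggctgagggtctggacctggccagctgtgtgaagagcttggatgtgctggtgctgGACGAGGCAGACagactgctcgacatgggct

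The paralogues Ddx19a (chr8:110979039-110979158, minus strand) and Ddx19b (chr8:111011288-111011407, minus strand) each held a day 4 site over the motif, of 120 nt and with a score of 22.73, and the sites have the same sequence. The authors kept reads with several alignments, so the reads of these sites cannot be told apart between the genes.
Ddx19a: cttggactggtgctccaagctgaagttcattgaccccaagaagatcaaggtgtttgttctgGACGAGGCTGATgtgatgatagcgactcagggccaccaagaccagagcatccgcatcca
Ddx19b: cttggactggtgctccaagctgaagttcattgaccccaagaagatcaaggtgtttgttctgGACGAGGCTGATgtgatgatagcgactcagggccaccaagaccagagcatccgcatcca

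The second set shows, for 4 members called higher or lower at day 4, the highest-scoring coding site of at most 150 nt that was found in both replicates of a single one of these days and not overlapped at the other. No bases are marked here. The sites of Dhx16 (chr17:35888092-35888202, plus strand) and Dhx40 (chr11:86799421-86799491, minus strand) belonged to day 4, and those of Ddx11 (chr17:66143701-66143772, plus strand) and Ddx46 (chr13:55663853-55663933, plus strand) to day 0.
Dhx16: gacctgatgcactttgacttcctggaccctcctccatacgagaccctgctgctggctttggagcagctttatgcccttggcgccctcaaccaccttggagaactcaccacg
Dhx40: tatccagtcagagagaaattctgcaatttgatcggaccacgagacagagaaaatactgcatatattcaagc
Ddx11: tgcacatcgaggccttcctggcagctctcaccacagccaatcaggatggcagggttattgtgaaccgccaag
Ddx46: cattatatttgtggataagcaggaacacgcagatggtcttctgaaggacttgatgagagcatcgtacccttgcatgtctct

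The third set shows intronic sites present at all 3 days. The Ddx17 site (chr15:79533404-79533490, minus strand, intron 11) held calls of all 4 sets at day 4, and the Ddx5 site (chr11:106787158-106787271, minus strand, intron 1) held ssRNase calls of both replicates at day 0.
Ddx17: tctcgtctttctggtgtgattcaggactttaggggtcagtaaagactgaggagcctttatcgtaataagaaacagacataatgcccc
Ddx5: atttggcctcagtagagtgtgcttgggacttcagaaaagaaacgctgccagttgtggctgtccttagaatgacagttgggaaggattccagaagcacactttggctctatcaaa

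Exonic PPSs were found in 47 of the 53 members on some day, and in 42 of them on all 3 days. Among all protein-coding genes the numbers were 9550 and 7178. Median exonic coverage of the 47 members was 11.6%, 7.7% and 9.33% at day 0, day 2 and day 4, beside 6%, 5.59% and 6.02% over the 9550 genes. Ddx members were more covered than Dhx members at each day, with medians of 14.6% and 5.62% at day 0 and of 10.5% and 6.26% at day 4.

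**Figure D1:**
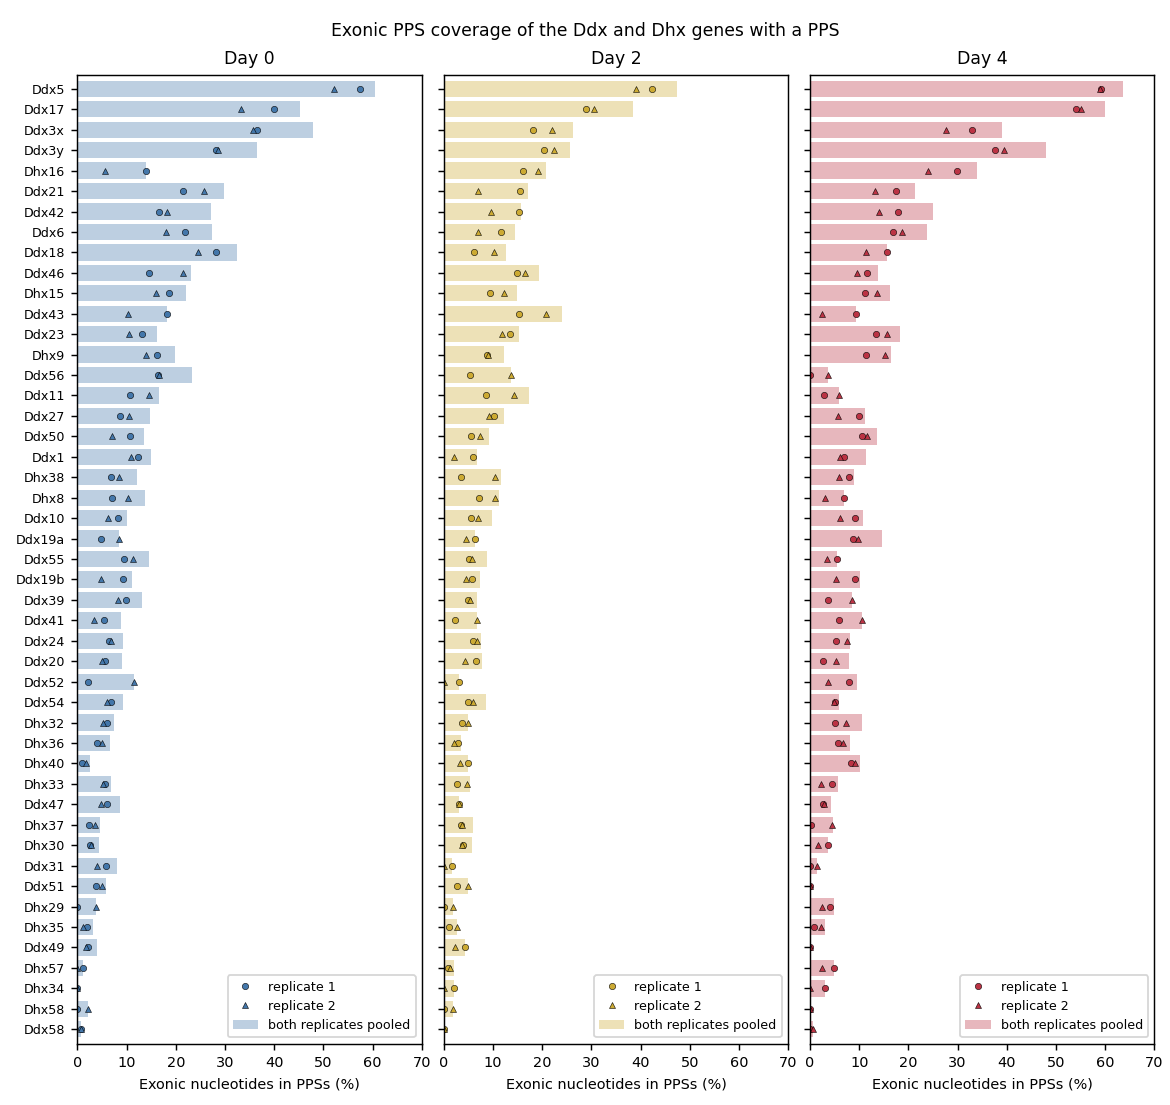
Exonic PPS coverage (percent of exonic nucleotides, x axis) of the 47 Ddx and Dhx genes with a PPS, ordered by their mean over days, at day 0, day 2 and day 4. Bars give the pooled coverage, circles replicate 1 and triangles replicate 2; Ddx5, Ddx17, Ddx3x and Ddx3y lie at the top at each day, while Ddx56 goes from 23.3% at day 0 to 3.67% at day 4.

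Ddx5 (ENSMUSG00000020719.14, chr11:106780355-106789185, minus strand), a cofactor of splicing and transcription, was the most covered member at every day. Its exonic coverage was 57.5% and 52.1% in the 2 replicates of day 0, 42.4% and 39.2% at day 2, and 59.1% and 59% at day 4. The day 4 replicates lay above those of day 0, but the pooled change of 3.05 percentage points was under the call limit. This change was 8.69 points with PPSs of all lengths, 7.47 over the longest coding transcript and 4.37 without positions shared with another gene. With PPSs of both replicates it was 5.4, and with a score of at least 10 it was 5.85. It was 17.6 with dsRNase calls only, 0.139 with ssRNase calls only and 4.23 as a difference of replicate means. Ddx5 also held the highest-scoring member PPS of each day, with scores of 76.3, 64.1 and 104.4. These were separate sites with 4, 3 and 7 merged calls. The score appears summed over calls, so it is not compared between days. The day 0 site lies in intron 11 of the longest coding transcript, in an exon of another annotated transcript.

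Its paralogue Ddx17 (ENSMUSG00000055065.7, chr15:79527736-79546741, minus strand), which shares many of these functions, had 39.9% and 33.3% at day 0, 29% and 30.5% at day 2, and 54.1% and 55.1% at day 4. Both day 4 replicates lay above all others, and both day 2 replicates below all others. Ddx17 was called higher at day 4 than at day 0 by 14.8 points.

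Ddx3x (chrX:13280970-13294052, plus strand), a helicase of translation initiation on structured mRNAs, and its Y-linked paralogue Ddx3y (chrY:1260771-1286629, minus strand) moved in opposite directions from day 0 to day 4. Ddx3x had 36.5% and 35.7% at day 0, 18.1% and 21.9% at day 2, and 33% and 27.6% at day 4. Ddx3y had 28.2% and 28.5% at day 0, 20.4% and 22.4% at day 2, and 37.6% and 39.4% at day 4. Both dropped at day 2 with no overlap between replicates. At day 4 Ddx3x stood below its day 0 replicates (pooled change -8.77 points) and Ddx3y above them (pooled change 11.6 points). The Ddx3x change was -1.93 points with ssRNase calls only, -2.86 with PPSs of both replicates and -4.74 with a score of at least 10, and as a difference of replicate means it was -5.82, or -3.14 without replicate 2 of day 4. The genes lie on opposite strands, and the difference between their changes was not tested.

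The next members in order were Dhx16 and Ddx21, with means over the 3 days of 22.9% and 22.7%. Dhx16 lay below Ddx21 in both replicates of day 0 and above it in both replicates of day 2 and day 4. Ddx42, a spliceosome helicase, and Ddx6, which acts in mRNA decay and translational repression, followed at 22.6% and 21.8%. At the low end, Ddx58 and Dhx58, sensors of viral RNA, had at most 0.723% and 2.14%.

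From day 0 to day 4, 5 of the 47 members were called higher, beside 15.3% of the 9550 genes, and 12 were called lower, beside 14.6%. As shares of the 47 these are 10.6% and 25.5%. The median change was -2.1 percentage points for members and 0 for all genes, and 31 members had lower and 16 higher pooled coverage. The members' median was smaller, though below 0, with dsRNase calls only (-0.295), with ssRNase calls only (-1), with PPSs of both replicates (-0.596), with a score of at least 10 (-0.734) and as a difference of replicate means (-1.07, or -0.639 without replicate 2 of day 0). Because members are more covered than most genes, the rule was also applied to genes with a mean coverage of at least 5%, an alternative chosen after seeing the data. Of 37 such members, 5 were called higher beside 23.9% of 5457 genes, and 10 lower beside 21.2%. The background of plus-strand and minus-strand genes differed in the same direction as the members. Of 18 plus-strand members, 1 was called higher and 8 lower, beside 12.3% and 17.3% of plus-strand genes. Of 29 minus-strand members, 4 were called higher and 4 lower, beside 18.4% and 11.8%. The median change was -4.59 points for plus-strand and -0.0993 points for minus-strand members, beside -0.356 and 0.515 for all genes of these strands. The part of the excess of plus-strand PPSs at day 0 in these values was not tested.

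**Figure D2:**
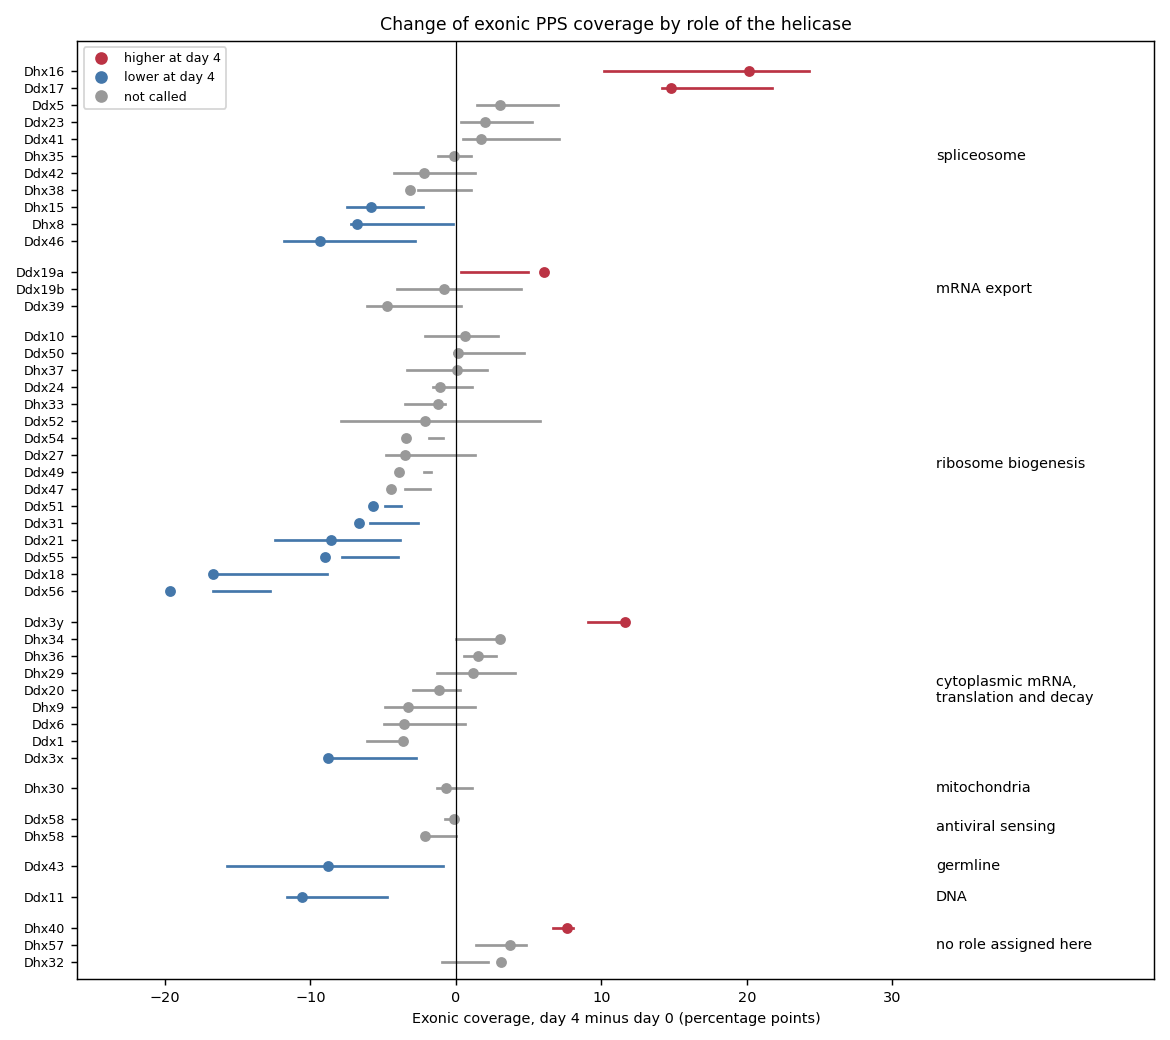
Day 4 minus day 0 exonic coverage (percentage points, x axis) for the 47 members, grouped by role. Points give the pooled change and lines the range over all 4 replicate pairings between these days, which need not hold the pooled point since pooled coverage joins the sites of both replicates; red marks the 5 members called higher and blue the 12 called lower, and none of the 16 ribosome biogenesis members is red.

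The 5 members called higher were Dhx16, Ddx17, Ddx3y, Dhx40 and Ddx19a. Dhx16 (ENSMUSG00000024422.14, chr17:35879819-35892670, plus strand), which remodels the activated spliceosome before splicing catalysis, had a pooled change of 20.2 points. With dsRNase calls only it was 5.47 points, and as a difference of replicate means 17.2, or 13.1 without replicate 2 of day 0. Ddx17 changed by more than Dhx16 with dsRNase calls only (24.4 points), with PPSs of both replicates (21.1 against 14.3), with a score of at least 10 (17.1 against 16) and in replicate means (18 against 17.2). The exonic coverage of Dhx16 was 13.8% and 5.64% at day 0, 16.1% and 19.2% at day 2, and 29.9% and 24.1% at day 4, so each day lay above the one before. Its coding sequence was covered to 16.2%, 23.9% and 41.6% at the 3 days. Of 19 regions with a PPS in Dhx16, joined over days, none was found at day 0 alone, 5 at day 4 alone, 5 at day 2 and day 4, and 6 at all days. It was the only plus-strand member called higher.

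Dhx40, a DEAH-box member with no role assigned here, had 0.992% and 1.65% at day 0, 4.91% and 3.26% at day 2, and 8.34% and 9.05% at day 4. The order of days was the same as for Dhx16, without overlap between day 0 and day 4. Ddx19a, an mRNA export factor at the nuclear pore, had 4.8% and 8.49% at day 0 and 8.83% and 9.77% at day 4, so its replicates were barely apart. The day 4 site shown above, shared in sequence with Ddx19b, lies in this gene, and with PPSs called in both replicates only, or with a score of at least 10, its change became -0.744 points. It was 0.237 points with dsRNase calls only and, as a difference of replicate means, 2.65, or 0.812 without replicate 1 of day 0.

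All 16 ribosome biogenesis members had exonic PPSs, and 6 of them were called lower at day 4 (beside 14.6% of all genes), none higher (beside 15.3%) and 10 neither. Their median change was -3.68 points. The 6 were Ddx56, Ddx18, Ddx55, Ddx21, Ddx31 and Ddx51, with 3 of 7 on the plus strand and 3 of 9 on the minus strand. Ddx56 (ENSMUSG00000004393.10, chr11:6258919-6267772, minus strand), a nucleolar helicase of large-subunit assembly, had 16.4% and 16.7% at day 0, 5.29% and 13.7% at day 2, and 0% and 3.67% at day 4. Its pooled change was -19.7 points. It was -4.38 with ssRNase calls only, where Ddx11 (-9.63) and Ddx18 (-6.81) changed more, -9.75 with PPSs of both replicates and -11.5 with a score of at least 10. With PPSs of all lengths it was -14.8, beside -18.4 for Ddx18. Of its 15 joined regions, 6 were found at day 0 alone and 6 at day 0 and day 2, and 1 at day 4 alone.

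Ddx18 (ENSMUSG00000001674.11, chr1:121553835-121567989, minus strand), also a nucleolar helicase, had 28.2% and 24.5% at day 0, 6.2% and 10.3% at day 2, and 15.7% and 11.3% at day 4. Both later days lay below day 0, and the day 4 replicates above those of day 2, with a pooled difference of 3.02 points that passed no call. Its change from day 0 to day 4 was -6.81 points with ssRNase calls only and -6.85 with a score of at least 10. Ddx18 shares much of its transcript with other annotated loci, since 66.1% of its 30-base words occur in another transcript, mainly that of Gm16433. Ddx55, a helicase of large-subunit maturation, had 9.53% and 11.2% at day 0, 5.06% and 5.68% at day 2, and 5.57% and 3.4% at day 4. Its pooled change of -9 points became -3.96 with ssRNase calls only and -2.72 with a score of at least 10.

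Ddx21, which acts in rRNA transcription and processing, had 21.4% and 25.7% at day 0, 15.5% and 6.99% at day 2, and 17.5% and 13.3% at day 4, a pooled change of -8.6 points. With ssRNase calls alone its change was 3.59 points. Ddx51 dropped to 0% in both replicates of day 4, from 3.79% and 4.9% at day 0. Ddx31 went from 5.89% and 4.05% to 0% and 1.41%. Both genes passed the call on pooled coverage, which joins the sites of both replicates. Their differences of replicate means were under the limit of 5 points. The changes of these genes under the alternatives were not computed.

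Of 11 spliceosome members with a PPS, 2 were called higher (Dhx16 and Ddx17, beside 15.3% of all genes), 3 lower (beside 14.6%) and 6 neither, counts near the background. Their median change was -0.155 points. The 3 called lower were Ddx46, Dhx8 and Dhx15. Ddx46, which acts when the branch site is recognised, had 14.4% and 21.4% at day 0, 14.9% and 16.4% at day 2, and 11.6% and 9.6% at day 4, so its replicates overlapped until day 2. Its pooled change of -9.31 points was -3.07 with ssRNase calls only, and its difference of replicate means, -7.33, was -3.85 without replicate 2 of day 0. Dhx8, which releases the spliced mRNA, changed by -6.78 points, and Dhx15, which takes the spliceosome apart, by -5.84 points. Ddx41 and Ddx23, spliceosome members as well, changed by 1.71 and 2.01 points and passed no call.

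Of 9 members that act on cytoplasmic mRNA, translation or decay, 1 was called higher (Ddx3y, beside 15.3% of all genes), 1 lower (Ddx3x, beside 14.6%) and 7 neither, which is near the background. Among the 3 mRNA export members with a PPS, Ddx19a was the only one called. Ddx11, a DNA helicase of chromosome cohesion, had 10.7% and 14.5% at day 0, 8.53% and 14.3% at day 2, and 2.87% and 5.9% at day 4, a pooled change of -10.6 points that was -5.76 with PPSs of both replicates. Ddx43, known mainly from the germline, had 18.1% and 10.2% at day 0, 15.4% and 20.8% at day 2, and 9.33% and 2.4% at day 4. In both genes only day 4 stood apart, and the higher day 4 replicate of Ddx43 was just below the lower one of day 0.

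**Figure D3:**
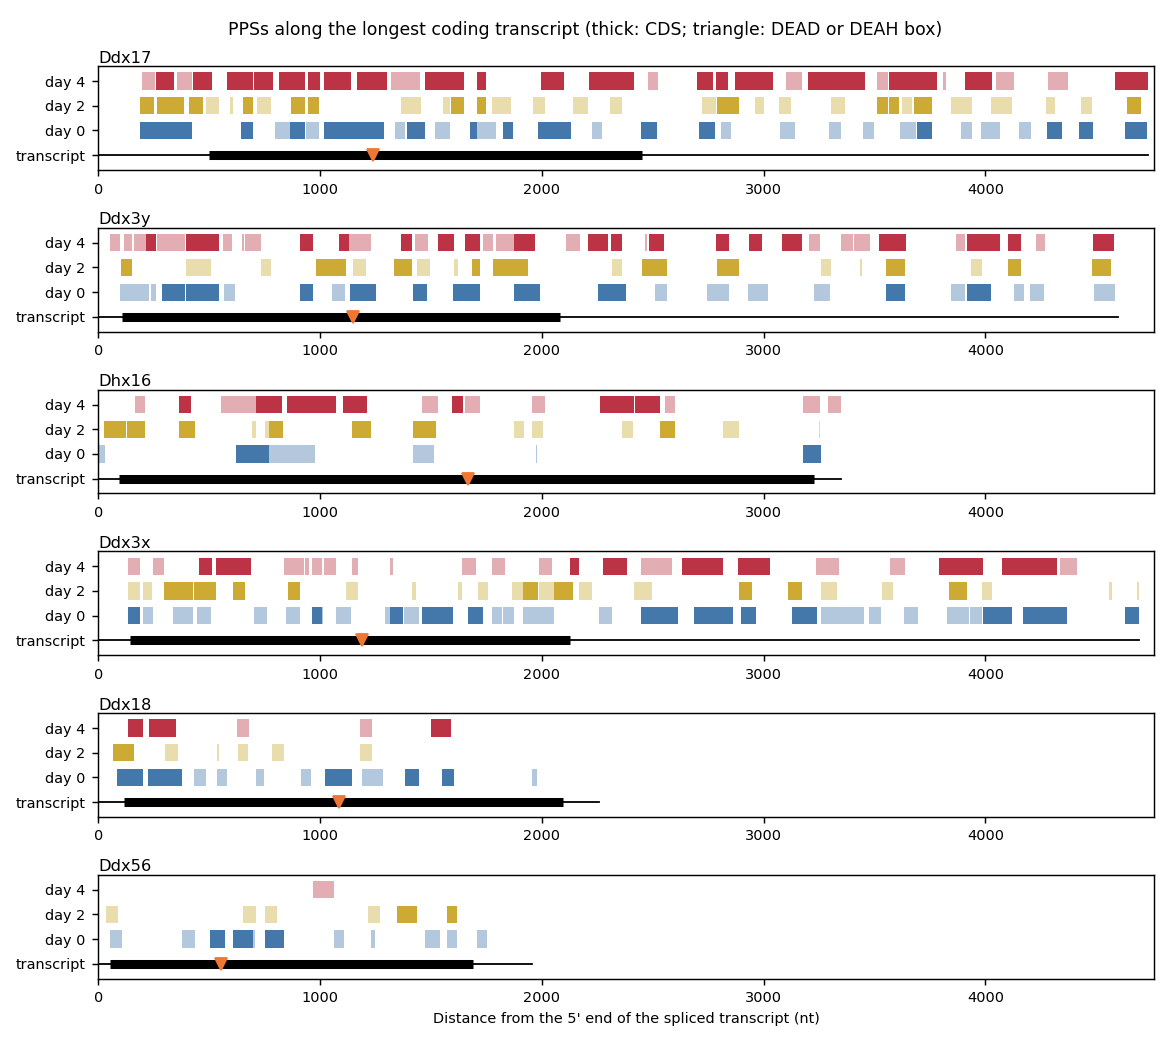
PPSs of 6 members along the longest coding transcript, as distance in nt from its 5′ end, with a row for each day. Full colour marks PPSs called in both replicates and pale colour those of a single replicate; the thick line is the CDS and the triangle the DEAD or DEAH motif. Sites are spread over CDS and 3′ UTR in Ddx17, Ddx3y and Ddx3x, Dhx16 has 17 PPSs at day 4 against 7 at day 0 over its whole gene, and Ddx56 has 1 at day 4 against 12 at day 0.

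From day 0 to day 2, 16 members were called lower, beside 17.2% of all genes, and 1 (Dhx16) was called higher, beside 7.7%. Among members with a mean coverage of at least 5%, 15 of 37 were called lower, beside 26.9% of genes, and 1 higher, beside 11.3%. The median change was -2.43 points for members and -0.454 for all genes, and the shares called lower were 38.9% of plus-strand and 31% of minus-strand members, beside 19.9% and 14.3% of genes on these strands. The 16 included Ddx5, Ddx17, Ddx3x, Ddx3y, Ddx6, Ddx1 and Dhx9. Ddx6 had 21.8% and 18.1% at day 0 and 11.7% and 6.99% at day 2. Of the 9 members of cytoplasmic mRNA, translation and decay, 5 were called lower and none higher.

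From day 2 to day 4, 10 members were called higher, beside 17.6% of genes, and 4 lower, beside 7.12%. As shares of the 47 members these are 21.3% and 8.51%, near the background, so the counts are no result about the members as a set. For this comparison the rule was not applied to genes with a mean coverage of at least 5%. The 10 were Ddx17, Ddx19a, Ddx3x, Ddx3y, Ddx5, Ddx52, Ddx6, Dhx16, Dhx32 and Dhx40, and the 4 were Ddx11, Ddx43, Ddx46 and Ddx56. All 9 members of cytoplasmic mRNA, translation and decay had higher pooled coverage at day 4 than at day 2, and 3 of them passed the call. Pooled coverage was also higher at day 4 in 32 of the 47 members and in 5209 of the 9550 genes. Of these 9 members, 8 had lower pooled coverage at day 2 than at day 0, so their rise starts from a low day. Comparisons that share a day share its samples, so these counts are not independent of those above.

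By nuclease, the drop at day 2 lay mainly in the dsRNase calls. The mean exonic coverage of the 47 members in dsRNase PPSs was 10.1%, 5.89% and 9.71% at day 0, day 2 and day 4, and in ssRNase PPSs 9.43%, 8.22% and 8.93%. Over the 9550 genes these were 6.02%, 4.2% and 6.6% for dsRNase, and 5.5%, 5.86% and 5.25% for ssRNase. Of the dsRNase call sets of day 2, replicate 2 was the smallest of all 12 (20927 calls) while replicate 1 (41323 calls) exceeded both of day 0 (34589 and 41265 calls), and the part of set size in this result was not tested.

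Members also differed in the nuclease that found them. At day 0, 6 members had more ssRNase than dsRNase coverage by the same rule, beside 8.13% of genes, and 9 had more dsRNase coverage, beside 10.9%. At day 2 the numbers were 11, beside 13.5%, and 1, beside 2.87%. At day 4 they were 2, beside 5.77%, and 5, beside 12.4%. The call sets of the nucleases differed in size, and the part of this in the shares was not tested. Ddx21 was on the dsRNase side at all 3 days, with 17.7% and 24.9% in dsRNase calls and 5.62% and 2.34% in ssRNase calls at day 0. Ddx3x was so at day 0 and day 4. Its dsRNase coverage at day 0 was 29.6% and 32.2% against 11.4% and 6.99% by ssRNase, while Ddx3y showed 14.6% and 16% against 24.7% and 20.3%, the opposite order. Ddx5 and Ddx17 had more ssRNase coverage at day 0 and day 2. At day 4 Ddx5 had more dsRNase coverage, 53.4% and 45.6% against 44.5% and 34.4%, and the nucleases overlapped in Ddx17.

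**Figure D4:**
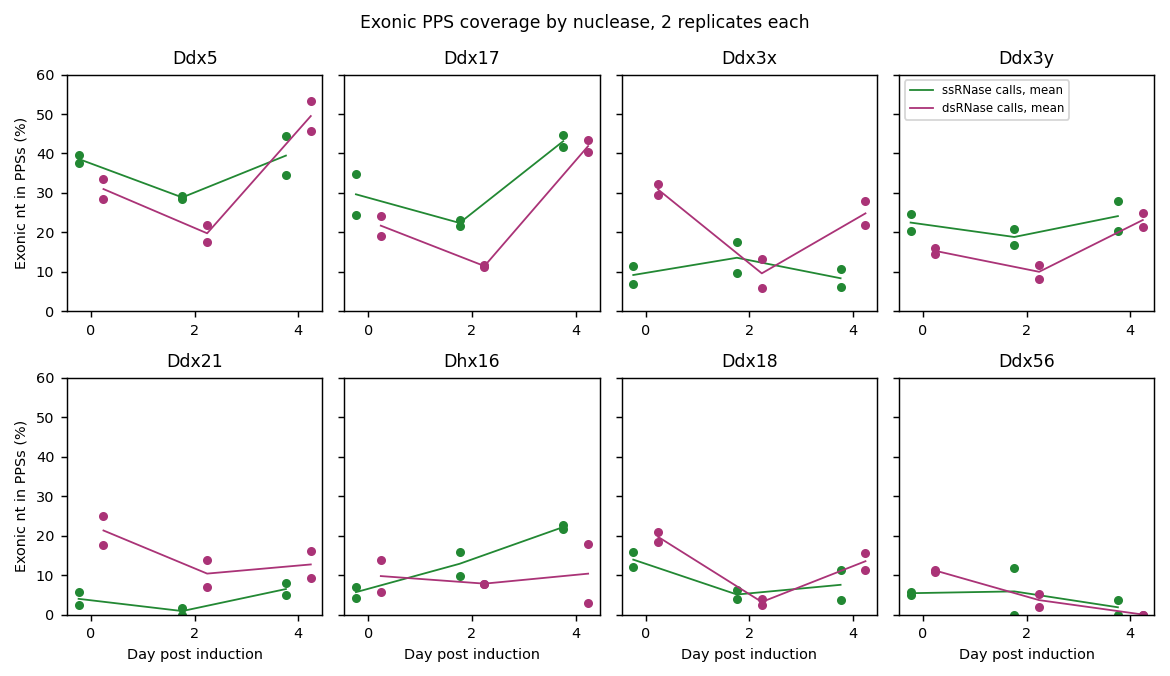
Exonic coverage (percent, y axis) of 8 members in PPSs of ssRNase (green) and dsRNase (purple) calls at day 0, day 2 and day 4. Points are the 2 replicates and lines join their means. In Ddx3x the dsRNase points lie above the ssRNase points at day 0 and day 4, in Ddx21 at every day, and in Dhx16 the rise at day 4 is seen in the ssRNase points, which reach 21.7% and 22.7%.

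Intronic PPSs were found in 43 members. Their median intronic coverage was 0.892%, 0.655% and 0.296% at day 0, day 2 and day 4, beside 0.48%, 0.64% and 0.487% in 7246 genes. From day 0 to day 4, 1 member was called higher (Ddx17, beside 2.44% of genes) and 2 lower (Ddx39 and Ddx55, beside 3.09%). From day 0 to day 2 none was called higher, beside 1.44%, and 1 lower (Ddx5, beside 2.19%). From day 2 to day 4, 2 were called higher (Ddx5 and Ddx17, beside 1.59%) and none lower, beside 1.26%. Shares this close to the background are no result about the members as a set.

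Ddx5 had the highest intronic coverage, 12.4% and 11.9% at day 0, 10.2% and 6.32% at day 2, and 16% and 18% at day 4. Ddx17 had 5.99% and 8.08%, then 4.07% and 5.81%, then 15.1% and 12%. In both genes the day 4 replicates stood above the others. Ddx3x followed at 7.26%, 3.8% and 5.12% pooled, and Dhx9, a helicase that unwinds long duplexes, at 6.08%, 4.08% and 5.57%. In Ddx39, an mRNA export helicase, intronic coverage went from 3.98% and 3.86% at day 0 to 0.107% in both replicates at day 4. In Ddx55 it went from 3.26% and 4.64% to 0%.

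These intronic values leave out positions that another transcript of the strand uses as exon. Taking introns of the longest coding transcript whole, intron 11 of 12 had the highest mean coverage over the 3 days among the introns of both Ddx5 (chr11:106782694-106783958) and Ddx17 (chr15:79531915-79535956), which were singled out after their values were seen. The Ddx5 intron was covered to 78.5% and 74.5% at day 0, 65.9% and 67% at day 2, and 77.2% and 73.4% at day 4. The Ddx17 intron was covered to 37.7% and 39.9%, then 25.7% and 24.5%, then 58.1% and 56.9%. Among 73383 introns of at least 500 nt in genes with an exonic PPS, of which 38.7% held any PPS, they ranked 2 and 62 by mean coverage. All covered positions of the Ddx5 intron lie in exons of other annotated transcripts and count as exonic above. Of the 4042 nt of the Ddx17 intron, 1450 lie in no exon of the strand, and these were covered to 54.3%, 26.5% and 68.5% at the 3 days.

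In both introns dsRNase coverage lay below ssRNase coverage at day 0 and day 2, and its day 4 replicates stood above all earlier ones. A PPS with calls of both nucleases counts in full for each, so these values are not the extent of the dsRNase calls alone. In Ddx5 intron 11 dsRNase coverage was 3.95% and 16.7% at day 0, 8.7% and 6.32% at day 2, and 73.4% and 39.4% at day 4. ssRNase calls covered 74.5% in both replicates of day 0 and 77.2% and 73.4% at day 4. In Ddx17 intron 11, dsRNase coverage was 16% and 17.9% at day 0, 8.16% and 5.44% at day 2, and 44% and 44.1% at day 4, and ssRNase coverage 37.7% and 37.8%, 20.8% and 19%, and 54% and 50.4%. Over all 7246 genes, mean intronic coverage by dsRNase was 0.577%, 0.489% and 1.09% at the 3 days, which is a rise at day 4 of the same direction. Other members had different patterns. Intron 10 of Dhx15 was covered to 35.3% and 31.7% at day 0 and to 15% and 13% at day 4. Intron 10 of Ddx55 was covered to 10.1% and 14.4% at day 0 and held no PPS at day 4.

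**Figure D5:**
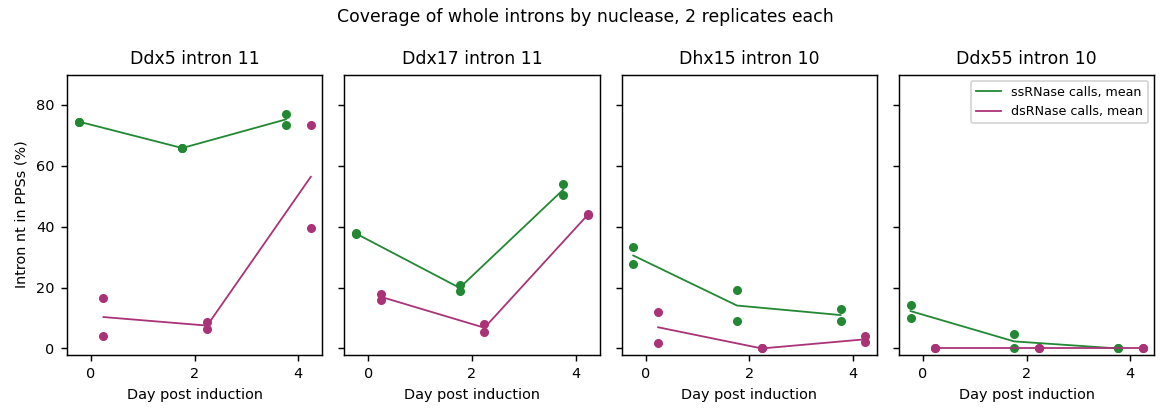
Coverage of whole introns (percent of intron nucleotides, y axis) by ssRNase (green) and dsRNase (purple) PPSs at day 0, day 2 and day 4 for intron 11 of Ddx5 and Ddx17 and intron 10 of Dhx15 and Ddx55. Points are the 2 replicates and lines their means. dsRNase coverage at day 4 reaches 73.4% and 39.4% in Ddx5 and 44% and 44.1% in Ddx17, above all earlier dsRNase points of these introns.

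The codons of the DEAD or DEAH motif were located in 45 members, by translating the longest coding sequence and searching for it downstream of the ATP-binding loop. A PPS lay over at least part of the 12 motif nucleotides in 13 of these members at day 0 and again at day 2, and in 14 at day 4. The 14 make 31.1% (Wilson 95% interval 19.5% to 45.7%, counting error only). The interval treats the genes as independent, but the 14 include both Ddx19a and Ddx19b, whose site reads cannot be told apart. Coverage of all motif nucleotides was 24.6%, 26.9% and 26.1%, beside 19.1%, 14.4% and 17.5% for the whole CDS of the same members. PPSs of both replicates lay over the motif in 6, 6 and 9 members, the 9 again with both Ddx19a and Ddx19b. Which genes these were changed with the day. Ddx55 was covered over all 12 nucleotides at every day. Ddx5 and Ddx17 were covered at day 0 and day 4 in both replicates and at neither replicate of day 2. Ddx18 and Ddx56 were covered in both replicates of day 0 alone. Ddx51, Dhx30 and Ddx21 were covered in both replicates of day 2 alone. Dhx9, Ddx19a, Ddx19b and Ddx50 were covered over all 12 nucleotides in both replicates of day 4 and in neither replicate of day 2.

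Within the genes, CDS positions of all 53 members were covered to 18.9%, 14.2% and 17.1% at day 0, day 2 and day 4. The replicates had 13.8% each at day 0, 10.4% and 10.5% at day 2, and 13.1% and 12.8% at day 4, so that day 2 lay below the other days. 3′ UTR positions were covered to 14.7%, 8.69% and 14.4%, with both replicates of day 2 (6.15% and 6.58%) below those of day 0 (11.8% and 10.6%) and day 4 (11.7% and 11.6%). 5′ UTRs were at 11.9%, 10.5% and 12.6%. Over all protein-coding genes CDS was covered to 7.03%, 6.01% and 7.17%, 3′ UTRs to 3.19%, 2.5% and 4%, and 5′ UTRs to 4.24%, 4.31% and 3.39%. These run over 21938 genes, of which 9550 had an exonic PPS, beside 47 of the 53 members. The part of this in the difference of levels was not tested. Introns held 27.1%, 27.7% and 23.9% of the covered nucleotides of members, beside 49.5%, 54.7% and 48.9% over all genes.

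PPSs of members were of the same size as others, with median lengths of 63, 59 and 63 nt beside 63, 58 and 62 nt in the lists. Those with calls of both replicates made up 34.5%, 36.2% and 41.8% of 724, 585 and 617 member PPSs, beside 30.8%, 30.8% and 35.8%. Joined over days, members held 1082 regions, of which 19.5% were found at all 3 days, 23.2% at day 0 alone, 14% at day 2 alone and 15.7% at day 4 alone. In all protein-coding genes these shares were 14.2%, 19.5%, 19.5% and 20.8%. Ddx5 kept 19 of its 34 regions at all days, Ddx3y 16 of 41 and Ddx17 29 of 63. In Ddx55, 10 of 22 regions were found at day 0 alone and none at day 4 alone, and in Ddx18 9 of 16 and none.

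Sequence shared between loci limits some of these values, since reads with several alignments were kept. Apart from Ddx18, the members with the largest shares of 30-base words in other transcripts were Ddx19a (32.2%, all of it in Ddx19b), Ddx5 (21.6%, mainly Gm12183) and Ddx19b (14.5%). Ddx3x and Ddx3y shared few exact words with each other, with 0.807% of Ddx3y's words found in Ddx3x. The share in any other transcript was 6.91% for Ddx3x (2.86% in Gm44429), 1.71% for Ddx3y and 1.75% for Dhx16. The authors' alignment allowed mismatches, which exact words do not count, so these shares are no upper limit on reads that fit several loci. On the antisense strand, exons of 5 members held PPSs, at most 8.23% of their exonic nucleotides (Ddx49 at day 2).

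Of the 19 other RNA helicases listed for comparison that are in the annotation, 18 had an exonic PPS. From day 0 to day 4, 2 were called higher (beside 15.3% of all genes) and 4 lower (beside 14.6%), with a median change of -1.14 points. The largest changes in this list were in Eif4a2 and Eif4a3. Eif4a2, a subunit of the cap-binding complex, had 64.3% and 68.5% at day 0 and 60.2% and 52.9% at day 4. Eif4a3, the helicase core of the exon junction complex, had 9.05% and 15.5% at day 0 and 7.21% and 0.66% at day 4. Of 20 G-patch proteins, cofactors that activate DEAH-box helicases, 19 had an exonic PPS. Of these, 2 were called higher (beside 15.3% of all genes) and 2 lower (beside 14.6%), with a median change of -0.58 points. Gpatch8 had 7.24% and 3.79% at day 0 and 21.6% and 24.5% at day 4. Gpatch4 had 15.8% and 15% at day 0 and 13.1% and 8.87% at day 4.

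The 6 members without a PPS at any day were Ddx4, Ddx25, Ddx28, Ddx39b, Ddx59 and Ddx60. None held a PPS on its own strand in an intron or of 20 to 40 nt either. Ddx39b, the splicing and export helicase also known as UAP56, has 3783 exonic nt, and the nearest PPS of its strand lay 9398 to 9403 nt away at the 3 days. Its paralogue Ddx39 had 9.78% and 8.17% at day 0, 4.89% and 5.3% at day 2, and 3.69% and 8.5% at day 4. Whether these transcripts were present in the cells was not tested.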

How the data were processed

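PIP-seq libraries of MEL cells were grouped by sample title. The authors trimmed reads with cutadapt (1.2.1 in the submitters' notes), aligned them to mm10 with TopHat2 (2.0.10) keeping multiply aligned reads, collapsed PCR duplicates, and called PPSs with a modified CSAR package by a Poisson test of footprinting against structure only libraries. The deposited lists hold 1 merged list per day with a score for each PPS, the authors' enrichment value, which appears summed over merged calls. It is not a count, and read depth is unknown.

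The name field of each PPS gave its calls by nuclease and replicate (12 sets). Genes were those of GENCODE M21. Coverage, calls and backgrounds were computed as stated in the results with Python 3.11.15, numpy 2.4.6, pandas 2.3.3 and Biopython 1.88, and the functions were tested on simulated data. Intronic positions are those in no exon of that strand. Named members were those with at least 500 exonic nt and the 6 highest mean exonic coverages, the 5 largest called rises and falls, the 4 highest mean intronic coverages, or the highest-scoring PPS of a day. Other members given with values were chosen after their values were seen. Roles came from general knowledge. The members, lists and rules were chosen with earlier results of these data known. Alternatives covered PPS length, nuclease, replicate support, score, list size, centring, exon definition, overlapping genes, call limits, the replicate block and leaving out each replicate. Structure profiles were not used here.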

Additional observations from a re-analysis of the deposited data

Results flagged for a closer look

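In 2 members the nucleases moved in opposite ways in every replicate between day 0 and a later day. No minimum change was required, and the share of all genes doing so was not computed, so the count is no result about the members. The differences were not tested. In Ddx10, a ribosome biogenesis helicase, exonic coverage by ssRNase calls went from 1.85% and 0% at day 0 to 3.07% and 6.07% at day 4 (pooled change 7.29 points), while that by dsRNase calls went from 6.33% and 6.3% to 6.14% and 2.88% (pooled change -2.05 points). In Ddx46, ssRNase coverage went from 7.64% and 10.7% at day 0 to 12.3% and 15.3% at day 2 (4.37 points), and dsRNase coverage from 10.7% and 19.1% to 7.13% and 4.73% (-10.8 points).

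PPSs of 20 to 40 nt, which the comparisons leave out, numbered 175, 262 and 160 in members at day 0, day 2 and day 4. That is 19.5%, 30.9% and 20.6% of all member PPSs, beside 17.1%, 29.5% and 20% of the lists. Antisense coverage, also outside the comparisons, was found over the exons of 5 members, and was highest for Ddx19a at 5.95%, 5.14% and 6.73% of exonic nucleotides by mean over the days.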

How the results depend on the processing

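The median exonic change of members from day 0 to day 4, -2.1 points, kept its sign under all alternatives run. It was -1.93 with PPSs of all lengths, -1 with ssRNase calls only, -0.295 with dsRNase calls only, -0.596 with PPSs of both replicates, -0.734 with a score of at least 10 and -1.6 over the longest coding transcript. From day 0 to day 2 (-2.43) it was -0.466 with ssRNase calls only and -0.723 with PPSs of both replicates. The intronic median change (-0.12) was -0.058 with all lengths, -0.197 with ssRNase, 0.107 with dsRNase, 0 with PPSs of both replicates and 0 with the score limit. The 12 members called lower became 5 with ssRNase calls only, 7 with PPSs of both replicates and 3 at a limit of 10 points. The 5 called higher became 3 at 10 points and 10 with any change above 0. The share of all genes called was not computed under these alternatives, so the counts have no background beside them. Of the named members, 2 that passed the call changed sign, Ddx21 (3.59 points with ssRNase calls only) and Ddx19a (-0.744 points both with PPSs of both replicates and with the score limit). The cause was not tested.

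Replicate numbers recur across days with no shared source stated, and replicate differences correlated by -0.0762 to 0.0263 between days over 9550 genes. With the replicate block, same-numbered replicates compared, 5 members were higher and 12 lower, and the medians were -1.07 (day 4), -1.2 (day 2) and -0.0349 (intronic). Leaving out each replicate in turn compared means of replicates, since a union over 2 replicates exceeds a single one by construction. The medians then ranged from -1.17 to -0.639 (day 4), from -1.91 to -0.748 (day 2) and from -0.0786 to 0 (intronic), and 4 to 5 members were higher and 7 to 10 lower, with the 7 found without replicate 2 of day 4. For these counts and those of the replicate block, the share of all genes was not computed either.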
